A study of Homo sapiens with 54 samples.

Results

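The response of parental SUM1315 cells to olaparib alone was measured by comparing 3 libraries of cells treated with 8 µM olaparib with 3 libraries of untreated cells, 6 of the 54 libraries of the series. The members were chosen by the sample labels, and the comparison covers the 13133 of 27470 listed genes that were expressed in SUM1315 libraries. SUM1315 is a BRCA1 mutant triple negative breast cancer (TNBC) line, and parental cells are those not selected for olaparib resistance. Treatment was overnight by the labels and 12 h by the results of the study, and its methods name no vehicle for the untreated cells of these libraries. The labels give the doses in mM in 1 place and in µM in another, and µM, which the methods also give, is used. The series also holds parental SUM1315 cells given cisplatin (CDDP, 2 or 4 µM) without or with 8 µM olaparib, and parental cells of the BRCA1 wild type TNBC line MDA-MB-468, untreated or given 3 µM olaparib. Each condition has 3 libraries, from 1 line per genotype, and the labels do not say whether the libraries came from separate cultures, so p-values measure the spread between these libraries, which may be technical.

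Olaparib inhibits PARP-1 and PARP-2, enzymes that bind broken DNA and build chains of poly(ADP-ribose) that recruit repair proteins. Inhibited PARP stays trapped on DNA, and replication forks that meet it need homologous recombination, in which BRCA1 acts. Cells that carry such damage can slow their cycle through checkpoint kinases, and p53 target genes and interferon-stimulated genes are among those known to follow DNA damage.

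RNA was sequenced from the 3′ end of transcripts, and levels are given as adjusted read counts, the reads per gene scaled to 1 library size. The 6 libraries held 5737314 to 6943388 reads. Markers of mesenchymal TNBC cells were abundant, with 11600 to 13200 adjusted reads of VIM and 6890 to 7760 of CD44 per library, while the epithelial genes EPCAM, CDH1, CLDN7 and GRHL2 had 0 to 4 reads and CLDN4 and ESRP1 5 to 13. The luminal and hormone receptor markers PGR, TFF1 and KRT19 had 0 to 5 reads. Other markers of that list had more, with 3 to 25 for ESR1, 0 to 28 for FOXA1 and 16 to 51 for ERBB2. GATA3 had 46 to 125 and fell with olaparib (log2 fold change -1.31). Of the leukocyte markers, CD3E, LYZ and CD79A had no reads and PTPRC 0 to 4, but CD14 had 67 to 510. Of the fibroblast and endothelial markers, LUM, VWF and DCN had 0 to 6 reads, but PDGFRB had 36 to 101, PECAM1 114 to 192 and COL1A1 519 to 783. Libraries of the same condition correlated at 0.967 to 0.979 on the log2 scale and libraries of different conditions at 0.928 to 0.952. The untreated libraries also stood apart in their composition, in measures chosen after their values were seen. They held reads of 17086 to 17637 genes, against 15502 to 15784 with olaparib and 14612 to 16219 in the other 4 treated conditions of parental SUM1315 cells. Reads of the nuclear RNAs MALAT1 and NEAT1 together were 2190 to 2370 RPM (reads scaled to an equal library total) in untreated libraries and 1340 to 1550 RPM with olaparib, and those of 415 olfactory receptor genes, which breast cells do not use, were 30 to 37.1 and 10.8 to 17.4 RPM. In all 3 measures the untreated libraries were higher than the other 15 parental SUM1315 libraries. The part of this difference in the results below was not tested.

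**Figure D1:**
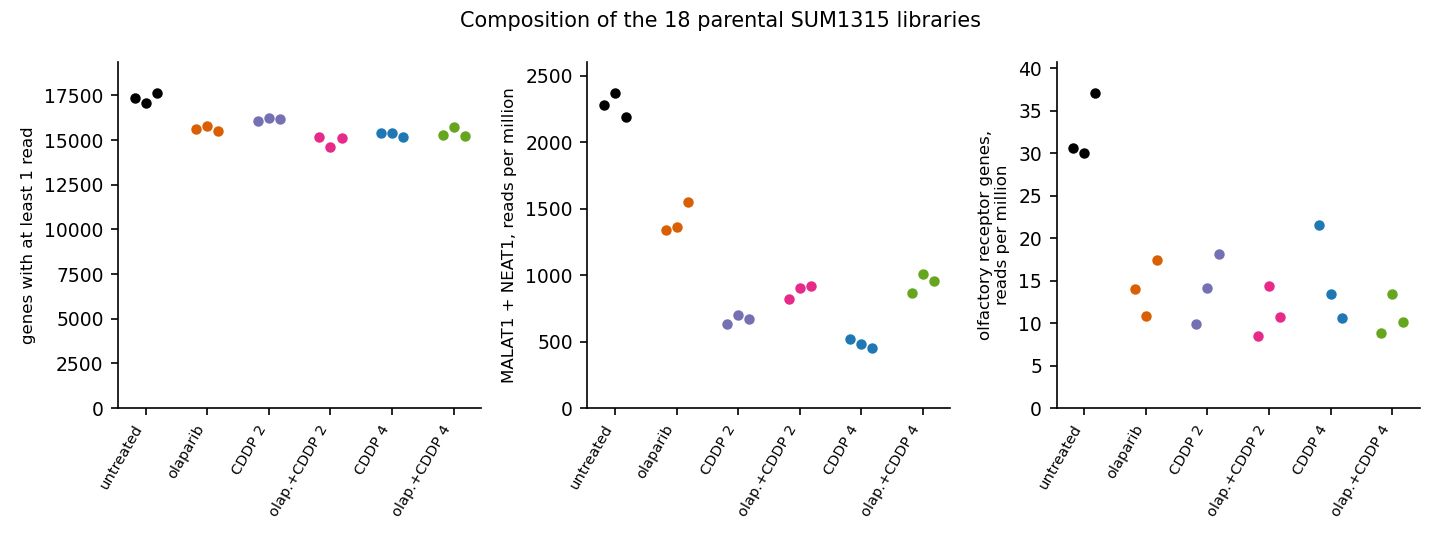
Genes with at least 1 read, the RPM of MALAT1 and NEAT1 together, and the RPM of 415 olfactory receptor genes (y axes, from 0) in the 18 parental SUM1315 libraries, 3 points per condition (x axis, CDDP doses in µM). The 3 untreated libraries lie above the other 15 in each panel, with 17086 to 17637 genes against at most 16219.

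Olaparib changed the expression of a large number of genes in both directions. Genes that passed an adjusted p of 0.05 (limma, Benjamini-Hochberg) and changed 2-fold or more were called differentially expressed (DEGs), and there were 1228 of them, 9.35% of the genes tested, of which 655 were higher (4.99%) and 573 lower (4.36%) with olaparib. At any fold, 2488 genes rose (18.9%) and 2244 fell (17.1%), so close to even numbers moved each way, and the median log2 fold change of all genes was -0.0026. The olaparib and untreated libraries did not overlap for 44.8% of all genes tested (22.2% with olaparib above and 22.6% below) and for 1164 of the 1228 DEGs, whose choice used the same values. The DEGs were spread over the range of expression, but their share was highest among genes with few reads, where more fell than rose. They were 12.7% of the 1114 genes with a mean under 10 adjusted reads (55 higher, 86 lower). Among the 1679 genes with a mean of 10 to 30 they were 15.4% (123 higher, 136 lower). Their share was 11.2% of the 2655 genes with a mean of 30 to 100 adjusted reads and 7.08% of the 1159 genes with at least 1000. Of the 181 DEGs that changed at least 4-fold, 54 rose and 127 fell. Among the 9398 genes with a mean of at least 50 over the 6 libraries, 408 rose and 299 fell at least 2-fold in a separate fit of those genes.

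**Figure D2:**
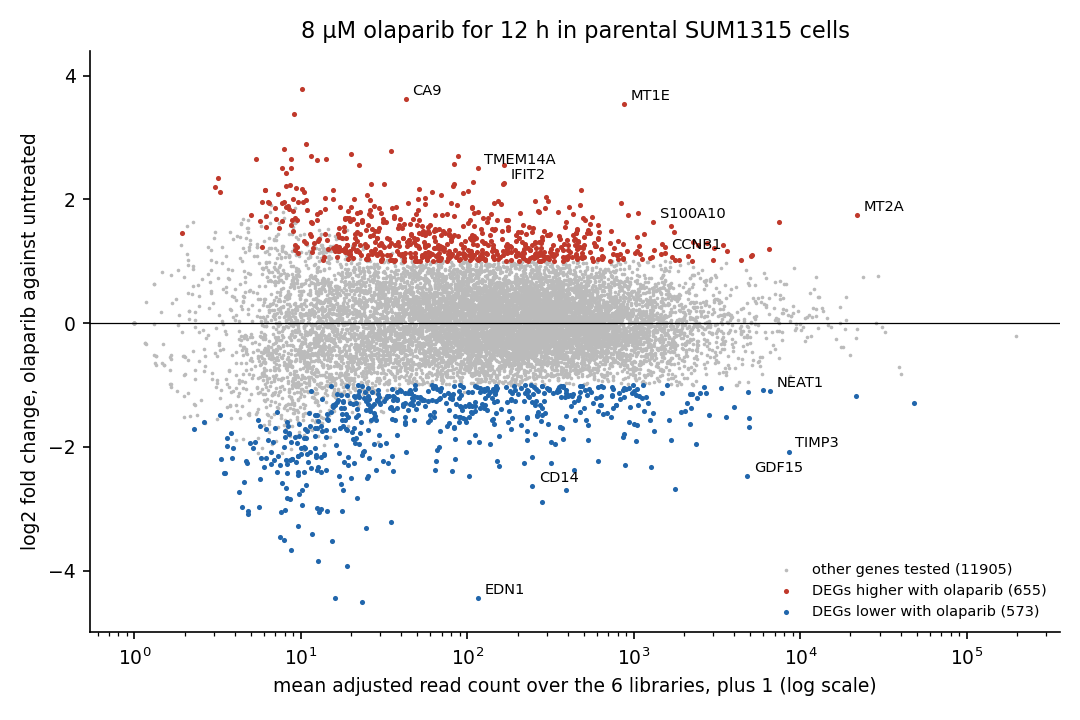
The log2 fold change of each gene tested (y axis, olaparib against untreated) against its mean adjusted read count over the 6 libraries plus 1 (x axis, log scale), with 655 DEGs higher with olaparib in red and 573 lower in blue. The DEGs cover the whole range of expression, from EDN1 at a log2 fold change of -4.45 to CA9 at 3.62 among the genes labelled.

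Among DEGs that averaged at least 30 adjusted reads in the higher group and whose libraries did not overlap, the largest rise was that of CA9, the hypoxia-induced carbonic anhydrase of the cell surface, at chr9:35673928-35681159 (GRCh38). CA9 had 9.09, 10.3 and 1.101 adjusted reads in the 3 untreated libraries and 66.1, 98.9 and 65.95 with olaparib, a log2 fold change of 3.62 ± 0.43 (SE, adjusted p = 4.18e-08). MT1E, which encodes a metal-binding metallothionein at chr16:56625781-56627112, rose from 166, 168 and 92.4 to 1677, 1579 and 1564 (log2 fold change 3.54 ± 0.13, adjusted p = 1.61e-20), and its untreated and treated libraries lay far apart. The water and glycerol channel gene AQP3 had 22.3, 45.3 and 10.5 adjusted reads without and 163, 148 and 105 with olaparib. CDKN2D, an inhibitor of the cyclin D kinases, rose from 62.1, 88.7 and 29.3 to 259, 279 and 252. The other 11 of the 15 largest rises were FAM83A, APLP1, ZDHHC12, OST4, CRTC2, TMEM14A, ZBED5-AS1, IFIT2, PCDHB2, NUDT7 and PPP1CA, at log2 fold changes of 2.25 to 2.78. For 6 of the 15, CA9, AQP3, OST4, PPP1CA, APLP1 and NUDT7, the untreated libraries differed among themselves by over 4-fold. In the first 4 of these replicate 2 was the highest and replicate 3 the lowest, and PPP1CA had 32.2, 67.9 and 7.51 adjusted reads in them against 110 to 139 with olaparib.

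By the same rule, the largest falls were those of KRT34, a hair keratin, and EDN1, which encodes the vasoconstrictor peptide endothelin-1. KRT34 had 39.4, 40.4 and 49.6 adjusted reads untreated and 0, 0.812 and 3.00 with olaparib (log2 fold change -4.50 ± 0.60, adjusted p = 3.74e-07). EDN1, at chr6:12230516-12297194, had 257, 196 and 203 untreated and 5.43, 24.8 and 5.00 with olaparib (-4.45 ± 0.43, adjusted p = 7.48e-10). KRT34 was nearly absent from the treated libraries, while EDN1 kept 24.8 adjusted reads in olaparib replicate 2. RCAN1, an inhibitor of calcineurin, fell from 2914, 2972 and 3312 to 428, 528 and 482 (-2.68 ± 0.09, adjusted p = 1.61e-20). The stress cytokine gene GDF15, at chr19:18386158-18389176, had 7652, 7875 and 8931 adjusted reads untreated and 1455, 1527 and 1415 with olaparib (-2.47 ± 0.09, adjusted p = 5.46e-20). CD14, the lipopolysaccharide co-receptor known from monocytes, fell from 459, 400 and 410 to 62.5, 66.4 and 72.0 (adjusted p = 2.26e-08), while PTPRC, the general leukocyte marker, had 0 to 4 reads in the 6 libraries. The other 10 of the 15 largest falls were CASC19, OLFM2, SH2D5, CLDN14, LOC100129940, KCNQ5-IT1, ADAMTS6, BEGAIN, RUNX1-IT1 and TENM2, at log2 fold changes of -3.93 to -2.48. KCNQ5-IT1 and RUNX1-IT1 are transcripts from introns, a class of 62 genes whose summed level was 120 to 132 RPM untreated and 44.6 to 55.6 RPM with olaparib. These transcripts and the antisense RNA ZBED5-AS1 overlap other genes, and the strand setting of the counting is not given in the sources used here.

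In the lists of the drug target, of recombination, of base excision repair and of end joining, 13 of 19, 23 of 34, 14 of 22 and 7 of 13 genes did not pass the test, shares close to that of all genes, of which 18.9% rose and 17.1% fell. PARP1 had 1082, 1037 and 1356 adjusted reads untreated and 1394, 1329 and 1277 with olaparib, groups that overlap (log2 fold change 0.21 ± 0.09, adjusted p = 0.0568), and PARP2 had a log2 fold change of 0.28 ± 0.14 (adjusted p = 0.122). Of 19 PARP family and poly(ADP-ribose) turnover genes tested, 2 rose and 4 fell, none of them by 2-fold. PARP9 rose from 117, 114 and 126 to 201, 184 and 183, and PARP3 fell from 208, 190 and 301 to 154, 175 and 151. BRCA1, mutated in this line, had 201, 202 and 279 adjusted reads untreated and 206, 236 and 257 with olaparib (0.05 ± 0.13, adjusted p = 0.813). Among 34 homologous recombination and Fanconi anemia genes, 9 rose and 2 fell, with a median log2 fold change of 0.15. UBE2T, the ubiquitin-conjugating enzyme of the Fanconi pathway, had the smallest p of these, rising from 130, 181 and 61.4 to 439, 491 and 471 (2.04 ± 0.21, adjusted p = 1.67e-09), and RBBP8, which encodes the end resection factor CtIP, fell from 1229, 1090 and 1363 to 559, 558 and 760. Of 22 base excision and single-strand break repair genes, 5 rose and 3 fell, and of 13 end joining and 53BP1 axis genes 4 rose and 2 fell. TP53BP1 did not pass the test (-0.16 ± 0.10, adjusted p = 0.254), while SLFN11, a gene known for sensitizing cells to agents that stall replication, rose from 173, 169 and 181 to 260, 297 and 267 (0.65 ± 0.14, adjusted p = 0.000435).

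The study gives p53 as mutant in this line. Of 27 genes known as p53 targets, 6 were higher, 7 were lower and 14 did not pass the test (median -0.04), shares not far from the 18.9% and 17.1% of all genes. CDKN1A, the p21 inhibitor of cyclin kinases, rose from 656, 605 and 653 to 1035, 996 and 1032 (0.68 ± 0.08, adjusted p = 6.56e-08), and SESN1 and CCNG1 rose by 1.32 and 1.04 on the log2 scale. AEN, an apoptosis-enhancing nuclease gene, fell from 304, 351 and 358 to 104, 104 and 143, and PHLDA3, SESN2 and GADD45A fell as well. Among 21 checkpoint kinases and partners 5 rose and 1 fell. H2AFX, which encodes the histone H2AX, rose from 734, 735 and 480 to 1531, 1550 and 1435 (1.24 ± 0.12, adjusted p = 6.41e-10), and CDC25C, the phosphatase that activates CDK1, from 88.2, 73.6 and 92.0 to 206, 211 and 176.

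The G2/M and mitosis genes rose together. Of 35 tested, 34 were higher with olaparib and none was lower, against 18.9% higher among all genes, with log2 fold changes of 0.34 to 1.96 and a median of 1.01. CCNB1, the mitotic cyclin B1, had 953, 936 and 1012 adjusted reads untreated and 2103, 2159 and 2068 with olaparib (1.13 ± 0.09, adjusted p = 4.56e-12). CDC20, an activator of the anaphase-promoting complex, had 267, 230 and 221 untreated and 714, 625 and 625 with olaparib (1.45 ± 0.12, adjusted p = 9.24e-12). ANLN, the cytokinesis protein anillin, rose from 265, 293 and 270 to 706, 744 and 733, and BIRC5, which encodes survivin, from 674, 697 and 536 to 1498, 1355 and 1305. Both groups were well separated for all 4 genes. More cells in G2/M and more RNA of these genes per cell cannot be told apart in bulk RNA. The 35 E2F target and replication genes tested were more divided, with 14 higher, 4 lower and a median of 0.20. TK1, thymidine kinase, rose from 155, 145 and 164 to 427, 398 and 395 (1.39 ± 0.10, adjusted p = 7.16e-13), and RRM2, PCNA and CDC45 rose by 1.27, 1.01 and 1.43 on the log2 scale. The replication genes MCM3, CDC6, RFC3 and RFC4 fell, by 0.45, 0.34, 0.45 and 0.59 on the log2 scale. Of 11 clustered histone genes tested 3 rose and none fell.

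Since the G2/M genes moved together, the 250 bases before the start of 3 of them, those with the smallest p whose promoter was in the RefSeq table (GRCh38.p14), are shown 5′ to 3′ on the strand of the gene. Capitals mark the cell cycle homology region (CHR), searched as TTTGAA and TTCGAA, and the CCAAT box, searched as CCAAT, on both strands. These elements are known from promoters of mitotic genes. The window of ANLN is chr7:36389612-36389861 and holds 1 CHR match on each strand, side by side. That of CCNB1 is chr5:69166900-69167149 and holds 2 CCAAT matches on the strand of the gene and no CHR match. That of CDC20 is chr1:43358731-43358980 and holds 2 CCAAT matches on the strand of the gene and 1 CHR match on each strand. All 3 genes lie on the plus strand.
ANLN: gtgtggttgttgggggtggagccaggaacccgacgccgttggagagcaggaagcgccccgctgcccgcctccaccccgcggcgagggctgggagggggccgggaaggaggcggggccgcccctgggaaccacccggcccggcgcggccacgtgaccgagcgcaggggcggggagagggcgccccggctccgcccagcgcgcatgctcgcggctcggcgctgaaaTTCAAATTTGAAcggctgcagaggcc
CCNB1: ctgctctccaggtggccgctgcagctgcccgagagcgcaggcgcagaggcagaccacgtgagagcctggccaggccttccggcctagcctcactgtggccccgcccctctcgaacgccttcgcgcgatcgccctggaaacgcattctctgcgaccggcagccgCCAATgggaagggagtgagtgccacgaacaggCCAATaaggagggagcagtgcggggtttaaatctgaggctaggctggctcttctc
CDC20: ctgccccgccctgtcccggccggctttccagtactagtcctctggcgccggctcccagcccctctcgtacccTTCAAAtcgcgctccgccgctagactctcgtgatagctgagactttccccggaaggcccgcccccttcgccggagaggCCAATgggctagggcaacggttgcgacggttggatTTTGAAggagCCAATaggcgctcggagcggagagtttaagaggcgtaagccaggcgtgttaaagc
Among the 29 G2/M genes with a promoter in the table, 17 had a CHR match and 25 a CCAAT match in this window, against 9.74% and 35.5% of the promoters of 9863 tested genes and 14.6% and 33% of all 27305 promoters. These matches are a description of the letters in the window.

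In 4 lists of stress and detoxification genes more genes rose than fell, beside 18.9% of all genes that rose and 17.1% that fell. All 3 metallothionein genes tested were higher. MT2A, at chr16:56608584-56609497, had 10500, 9986 and 9724 adjusted reads untreated and 33480, 33440 and 34330 with olaparib (1.75 ± 0.08, adjusted p = 7.33e-18), and MT1X rose from 773, 750 and 791 to 1283, 1271 and 1428. Metallothionein transcripts resemble each other, and reads that fit several of them may have been split or dropped in the counting. Of 22 NRF2 antioxidant genes, 14 rose and 1 fell, with a median of 0.58. NQO1, the quinone reductase at chr16:69709401-69726560, had 1655, 1761 and 1373 untreated and 3769, 4077 and 3780 with olaparib (1.29 ± 0.08, adjusted p = 6.87e-14), and TXN, thioredoxin, had 822, 1035 and 700 against 2453, 2593 and 2453. SRXN1, sulfiredoxin, was the member that fell, by 0.53 on the log2 scale. Of 18 heat shock genes 10 rose and 1, HSPA5, fell. HSPA1A rose from 115, 156 and 84.0 to 519, 475 and 258 (1.79 ± 0.22, adjusted p = 1.19e-07), and it shares most of its sequence with HSPA1B, so the split of reads between them is uncertain. Of 25 hypoxia response genes 15 rose and 2 fell. LDHA, lactate dehydrogenase A, rose from 2068, 2344 and 1704 to 4769, 4627 and 5157, and ALDOC and the glucose transporter gene SLC2A1 rose beside CA9, while EDN1 and VEGFA, the angiogenic growth factor, fell.

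The promoters of MT2A (chr16:56608334-56608583) and MT1X (chr16:56682220-56682469), both on the plus strand, are shown with matches to the core of the metal response element in capitals, searched as TGCGCNC and TGCACNC on both strands.
MT2A: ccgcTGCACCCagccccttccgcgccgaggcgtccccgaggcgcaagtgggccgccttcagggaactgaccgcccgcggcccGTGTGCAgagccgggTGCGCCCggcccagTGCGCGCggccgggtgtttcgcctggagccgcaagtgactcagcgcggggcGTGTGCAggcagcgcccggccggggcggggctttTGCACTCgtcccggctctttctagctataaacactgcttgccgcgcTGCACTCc
MT1X: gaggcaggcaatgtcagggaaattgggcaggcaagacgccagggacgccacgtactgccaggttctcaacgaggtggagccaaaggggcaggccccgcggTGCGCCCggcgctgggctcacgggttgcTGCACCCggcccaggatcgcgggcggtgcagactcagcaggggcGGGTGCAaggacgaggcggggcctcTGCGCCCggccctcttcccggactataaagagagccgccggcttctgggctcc
MT2A holds 7 matches and MT1X 4 in the 250 bases, and 33.3% of the promoters of tested genes hold at least 1. The MT1E promoter is not in the table.

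Genes of the integrated stress response, which the factor ATF4 drives when translation is slowed or amino acids are short, fell. Of 28 tested, 19 were lower and 1 was higher, against 17.1% lower among all genes, with a median log2 fold change of -0.80. NUPR1, a stress-induced nuclear protein, fell from 1355, 1451 and 1621 to 319, 241 and 344 (-2.30 ± 0.15, adjusted p = 1.39e-13). ASNS, asparagine synthetase, had 2535, 2417 and 2960 adjusted reads untreated and 659, 633 and 837 with olaparib (-1.90 ± 0.14, adjusted p = 7.50e-13), and the groups were far apart. TRIB3, a pseudokinase that dampens ATF4, fell from 1987, 1946 and 1709 to 642, 625 and 622, and the secreted glycoprotein gene STC2 from 1830, 1858 and 1181 to 425, 473 and 384. The member that rose was SLC7A11, the cystine transporter, which is also an NRF2 target, by 0.46 ± 0.12 on the log2 scale. The promoter of ASNS at chr7:97872409-97872658, on the minus strand, holds the single match of its 250 bases to the C/EBP-ATF response element, searched as TGATGNAA on both strands and marked by capitals.
ASNS: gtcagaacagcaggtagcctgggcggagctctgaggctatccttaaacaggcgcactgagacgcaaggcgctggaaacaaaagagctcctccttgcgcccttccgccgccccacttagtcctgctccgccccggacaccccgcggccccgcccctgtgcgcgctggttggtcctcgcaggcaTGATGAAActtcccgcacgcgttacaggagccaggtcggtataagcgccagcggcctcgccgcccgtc
In the table, 21 of the 28 genes had a promoter, and ASNS and CHAC1 were the 2 with such a match, against 1.47% of the promoters of tested genes. The windows of STC2 and TRIB3, read with that of ASNS for their small p, held no match and are not shown. RefSeq gave 2 starts for ASNS and 3 for TRIB3, and only the window of the most upstream one was read.

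**Figure D3:**
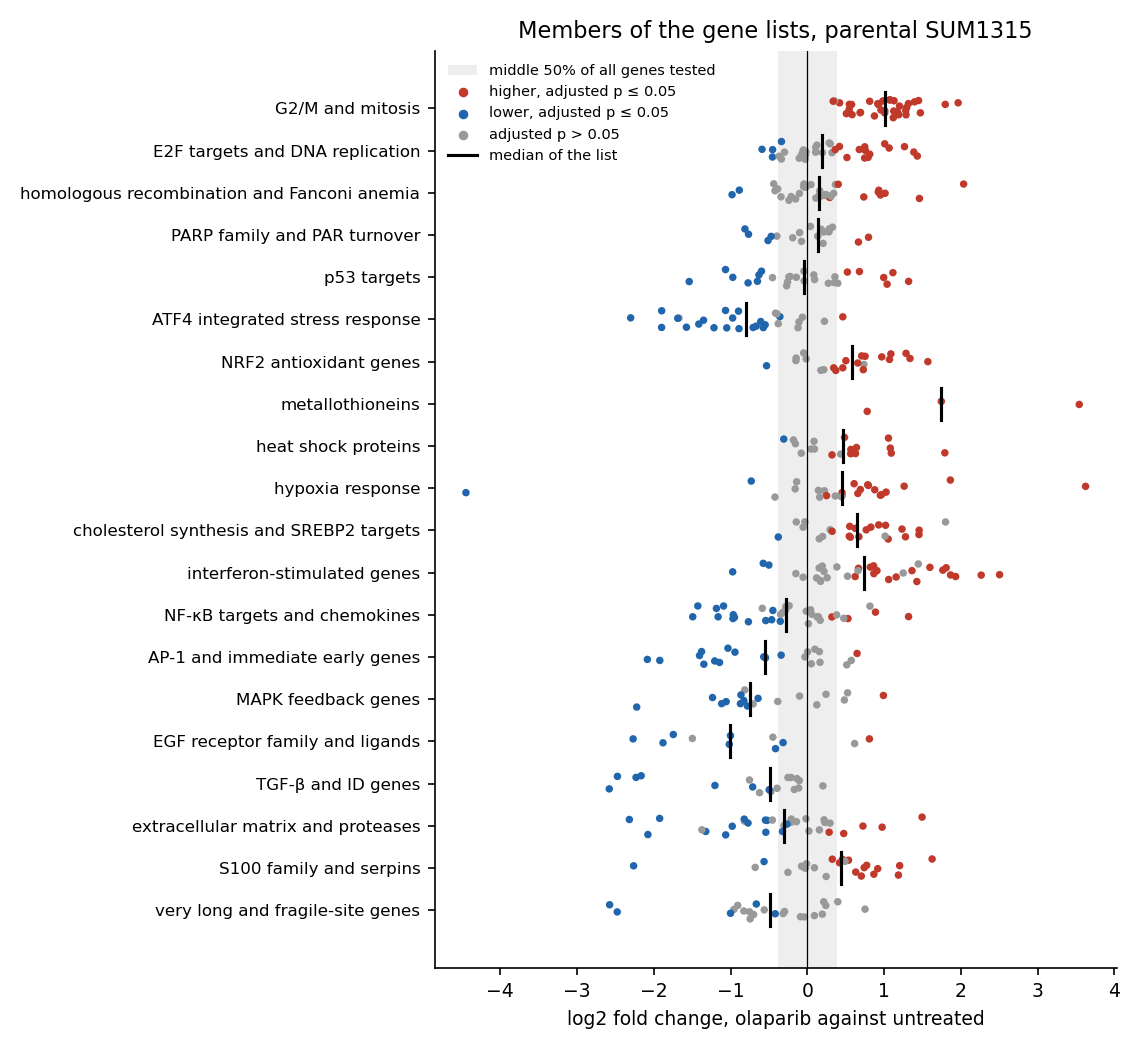
The log2 fold change (x axis, olaparib against untreated) of each tested member of 20 gene lists (rows), in red or blue where the adjusted p was at or under 0.05 and in grey otherwise, with a black line at the median of the list and a grey band over the middle 50% of all genes tested. The G2/M genes lie to the right of 0 with a median of 1.01 and the ATF4 genes mostly to the left with a median of -0.80.

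Cholesterol synthesis genes, which the factor SREBP2 induces, were mostly higher, with 15 of 24 up and 1 down (median 0.65). Among all genes 18.9% rose and 17.1% fell. CDDP alone, against the same untreated libraries, had a median of 0.65 over this list at 4 µM and 0.81 at 2 µM. Olaparib added to CDDP had medians of 0.012 at 4 µM and 0.015 at 2 µM. The effects of olaparib with and without 4 µM CDDP differed for 12 of these genes. MSMO1, a sterol oxidase, rose from 324, 274 and 275 to 797, 873 and 729 (1.45 ± 0.09, adjusted p = 3.02e-14), and INSIG1, which holds SREBP in the endoplasmic reticulum, from 237, 262 and 221 to 692, 648 and 640. The 20 LXR and fatty acid genes were divided, with 5 higher, among them LPCAT3 and SREBF1, and 4 lower, among them the sterol exporters ABCA1 and ABCG1. These shares are near the 18.9% higher and 17.1% lower of all genes.

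In the lists of growth factor signalling and of its feedback more genes fell than rose, and between 3 and 11 genes of each list did not pass the test. Among all genes tested, 18.9% rose and 17.1% fell. Of 11 EGF receptor family and ligand genes tested, 7 were lower and 1, EPGN, was higher, with a median of -1.001. HBEGF, a ligand of the receptor, fell from 488, 477 and 623 to 115, 94.96 and 116 (-2.27 ± 0.14, adjusted p = 3.02e-14). AREG, amphiregulin, fell from 605, 694 and 472 to 156, 144 and 175, and ERRFI1, an inhibitor of the receptor, from 2144, 2075 and 1858 to 624, 658 and 532. Of 18 MAPK feedback genes 9 fell and 1, ETV1, rose. DUSP5, a phosphatase that acts on ERK, had 883, 1004 and 1108 adjusted reads untreated and 210, 250 and 182 with olaparib (-2.22 ± 0.11, adjusted p = 2.04e-16), and DUSP6 had 6850, 7715 and 5430 against 2984, 3205 and 2945. Of 22 AP-1 and immediate early genes 13 fell and 1, KLF10, rose. EGR1 fell from 3159, 3463 and 2664 to 1470, 1511 and 1215, JUN from 913, 982 and 846 to 533, 512 and 391, and CTGF, a target of the Hippo pathway, from 43.4, 34.2 and 33.2 to 10.4, 6.72 and 6.995. Of 18 TGF-β and ID genes 7 fell and none rose. INHBA, the activin A subunit, fell from 239, 288 and 217 to 54.2, 59.1 and 43.0 (-2.23 ± 0.12, adjusted p = 1.29e-15), and BMP2 from 391.7, 387.1 and 411.6 to 85.0, 91.3 and 86.9.

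More interferon-stimulated genes rose than fell and more NF-κB targets fell than rose, and the difference between the lists was not tested. The shares of all genes were 18.9% higher and 17.1% lower. Of 34 interferon-stimulated genes, 17 rose, 3 fell and 14 did not pass the test, with a median of 0.74. Over this list, CDDP alone against the same untreated libraries had a median of 1.1027 at 4 µM and 0.6731 at 2 µM. Olaparib added to 4 µM CDDP raised 2 of these genes and lowered 3, with a median of 0.0079. At 2 µM CDDP the median change with olaparib was 0.1871. The effects of olaparib with and without 4 µM CDDP differed for 16 of the 34 genes. With olaparib alone, IFIT2 rose from 53.8, 57.9 and 56.9 to 281, 265 and 276 (2.27 ± 0.16, adjusted p = 4.65e-13). IFIT2 binds viral RNA, and its values had little spread within either group. IFIT3 rose from 112, 104 and 134 to 405, 378 and 447, and SAMD9 from 63.0, 55.9 and 57.9 to 195, 224 and 270, while DTX3L, IFI35 and XAF1 fell. Of 33 NF-κB targets and chemokines, 13 fell, 4 rose and 16 did not pass the test (median -0.28). The interleukin genes IL1B and CXCL8 fell, IL1B from 1687, 2045 and 1311 to 579, 561 and 715 and CXCL8 from 4340, 4702 and 3536 to 1601, 1710 and 1181 (-1.49 ± 0.15, adjusted p = 7.89e-10). SOD2, mitochondrial superoxide dismutase, rose from 7039, 7911 and 4596 to 11370, 12220 and 11660, and the chemokine genes CCL5 and CCL20 rose as well. Of 17 MHC class I presentation genes 5 rose and 5 fell, with a median of 0.02.

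Secreted proteins, keratins and regulators of apoptosis were among the other genes that changed. The counts of these lists stand beside 18.9% of all genes that rose and 17.1% that fell. Of 31 extracellular matrix and protease genes, 13 fell and 5 rose. TIMP3, an inhibitor of metalloproteases at chr22:32801705-32863041, had 13990, 13680 and 13530 adjusted reads untreated and 3388, 3370 and 3023 with olaparib (-2.08 ± 0.09, adjusted p = 1.42e-18), while its relative TIMP1 rose from 2488, 2442 and 2283 to 4995, 4455 and 4730. THBS1, thrombospondin, fell from 539, 540 and 425 to 99.5, 141 and 159. Of 24 S100 and serpin genes 13 rose and 2 fell. S100A8, a calcium-binding alarmin, rose from 3873, 4720 and 3276 to 9324, 8862 and 8843 (1.203 ± 0.11, adjusted p = 3.16e-10), and S100A10 from 646, 689 and 587 to 1800, 2029 and 2108, while S100P fell. Of 18 genes of mesenchymal or epithelial state 4 rose, among them SNAI1 and KRT8, and 6 fell, among them KRT7 and KRT14. Among 31 apoptosis regulators 9 fell and 3 rose. BCL2L1, which encodes the survival protein BCL-XL, fell from 1338, 1230 and 1977 to 459, 496 and 474 (-1.64 ± 0.14, adjusted p = 9.95e-11) and MCL1 from 8521, 9594 and 6430 to 4024, 4105 and 3299, while CASP8 rose from 202, 328 and 87.4 to 599, 696 and 415. Of 12 drug transport genes 2 rose and 2 fell, close to the shares of all genes. Of 38 ribosomal protein genes 11 rose and 3 fell, and the medians of these 2 lists were 0.16 and 0.17.

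The change also varied with the span of the gene on the genome, which was known for 98.3% of the genes tested. The median log2 fold change was 0.06 in the decile of genes with the shortest spans (median 2.41 kb) and -0.15 in the decile with the longest (median 247 kb). Of 22 very long and fragile-site genes tested, 5 fell and none rose, where 17.1% of all genes fell, a share near the background. Under 4 µM CDDP, the median change with olaparib ran the other way, from -0.03 in the shortest decile to 0.28 in the longest. There 11 of these 22 genes rose and none fell, beside 6.32% of all genes that rose and 6.52% that fell. With 2 µM CDDP the medians were 0 in the shortest decile, 0.055 in the longest and negative in those between. Over the 22 very long genes, the median change with olaparib was 0.49 with 2 µM CDDP and 0.80 with 4 µM. CDDP alone, in a comparison that shares the untreated libraries, had a median log2 fold change of -2.18 over the 22 genes at 4 µM. At 2 µM it was -1.47. The rises with olaparib thus started from low levels. EXOC4, a gene of the exocyst complex, had a log2 fold change of -0.66 ± 0.19 without CDDP (adjusted p = 0.00542) and 1.86 with it (adjusted p = 2.15e-08). It averaged 399 ± 25.2 adjusted reads untreated, 251 ± 18.8 with olaparib, 49.5 ± 7.53 with 4 µM CDDP and 181 ± 15.7 with both.

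Whether olaparib had the same effect in the presence of CDDP was asked in libraries that share none with the comparison above, by comparing olaparib plus CDDP with CDDP alone. With 4 µM CDDP there were 336 DEGs, 2.56% of the genes tested, of which 242 were higher and 94 lower with olaparib, and with 2 µM CDDP there were 330, of which 111 were higher and 219 lower. Of the 655 genes that rose at least 2-fold with olaparib alone, 76 (11.6%) also rose at any fold under 4 µM CDDP, where 6.32% of all genes did, 18 fell and 561 did not pass the test. Of the 573 that fell, 114 (19.9%) also fell, against 6.52% of all genes, 14 rose and 445 did not pass the test. The median log2 fold change of the genes that rose was 1.28 with olaparib alone and 0.17 under 4 µM CDDP, and of those that fell -1.44 and -0.29. The first value of each pair is that of genes chosen for a large change in those same libraries, so a smaller value in other libraries follows in part from the choice. Across the 13133 genes, which are not independent, the log2 fold changes without and with CDDP correlated at a Pearson r of 0.177 for 4 µM and 0.204 for 2 µM. The effect of olaparib differed with and without 4 µM CDDP for 2827 genes (21.5%, test of the interaction), and for 710 of the 1228 DEGs, whose choice used libraries that enter that test.

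**Figure D4:**
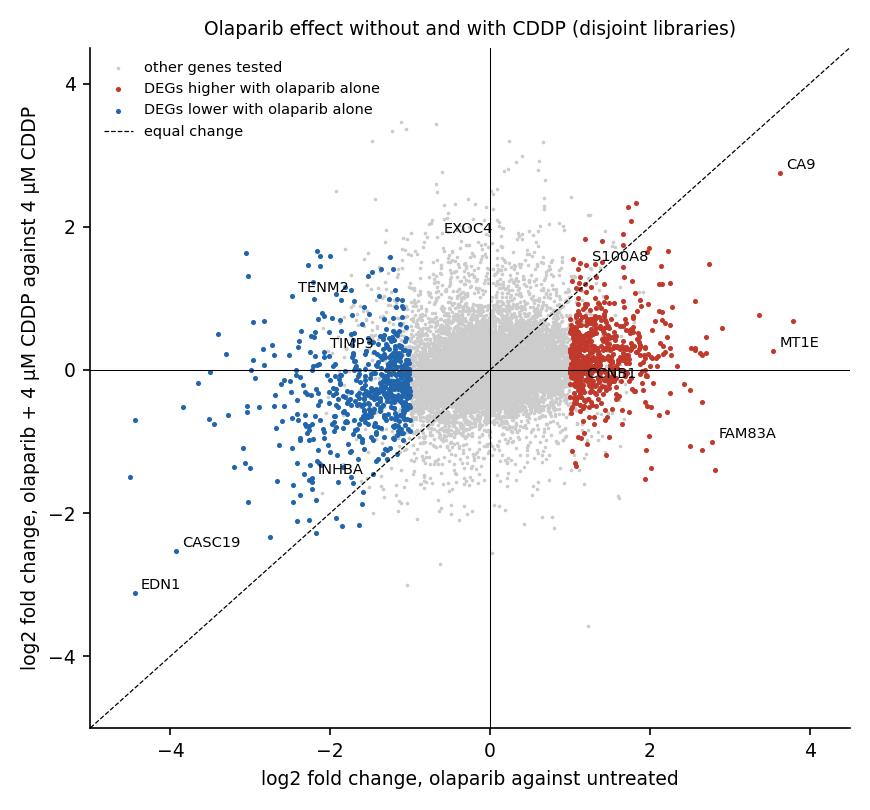
The log2 fold change of each gene tested for olaparib plus 4 µM CDDP against 4 µM CDDP (y axis) and for olaparib against untreated (x axis), from libraries that do not overlap, with the DEGs of olaparib alone in red and blue and a dashed line where both changes are equal. Most DEGs lie near 0 on the y axis, with medians of 0.17 and -0.29, while EDN1 and CA9 lie far from 0 on both axes in the same direction.

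Of the 1228 DEGs of olaparib alone, 114 were also called in the same direction, at any fold, with both 2 µM and 4 µM CDDP, 29 of them higher and 85 lower. At any fold, olaparib raised 686 and lowered 1327 of all 13133 genes under 2 µM CDDP. Under 4 µM CDDP it raised 830 and lowered 856. How many of all genes were called in both was not counted. EDN1 had the largest fall and CA9 the largest rise of the 114 with olaparib alone. EDN1 averaged 77.8 ± 1.96 (SD, n = 3) adjusted reads with 2 µM CDDP and 4.84 ± 5.74 with olaparib added, and 102 ± 21.7 and 11.4 ± 4.73 at 4 µM, so its level with olaparib was low in all 9 libraries. CA9 averaged 23.4 ± 18.4 and 109 ± 39.1 at 2 µM CDDP without and with olaparib and 27.2 ± 0.65 and 189 ± 16.9 at 4 µM (log2 fold change 2.75, adjusted p = 3.70e-05). S100A8 averaged 2174 ± 50.6 with 4 µM CDDP and 5983 ± 254 with olaparib added, a change of 1.46 on the log2 scale (adjusted p = 7.41e-11). NQO1 and MT2A, EGLN3, HSPA1B and INSIG1 were among the other genes that rose in all 3 comparisons, and RCAN1, CD14, GDF15, NUPR1, HBEGF, INHBA, DUSP5, DUSP6, BMP2, THBS1, ASNS, TRIB3, STC2, IL1A, IL1B and CXCL8 among those that fell. INHBA averaged 248 ± 35.9 untreated and 52.1 ± 8.28 with olaparib, and 724 ± 57.3 and 255 ± 32.6 in the 4 µM CDDP conditions.

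Other genes with large changes against untreated cells changed little between CDDP and CDDP plus olaparib. MT1E averaged 1131 ± 9.02 adjusted reads with 4 µM CDDP and 1360 ± 95.4 with olaparib added (log2 fold change 0.26, adjusted p = 0.186), beside 142 ± 42.9 untreated and 1607 ± 61.4 with olaparib alone, and the difference of both effects had an adjusted p of 7.39e-15. TIMP3 averaged 1747 ± 28.8 and 2071 ± 57.4 in the 4 µM CDDP conditions (adjusted p = 0.0634), beside 13733 ± 235 untreated and 3260 ± 206 with olaparib alone. The untreated libraries of MT1E and TIMP3 lay apart from all 5 treated conditions, whose levels were closer to each other. Of the 35 G2/M genes, none rose and 2 fell with olaparib under 4 µM CDDP (median -0.08), and the 2 effects differed for 33 of them. CDDP alone, compared with the same untreated libraries, had a median of 0.95 over these genes at 4 µM and 1.04 at 2 µM, beside 1.01 for olaparib, so for this list too the untreated libraries stood apart from the treated ones. CCNB1 averaged 1406 ± 63.3 with 4 µM CDDP and 1253 ± 11.1 with olaparib added (adjusted p = 0.232). Among the 28 ATF4 genes 10 fell and 1 rose under 4 µM CDDP (median -0.33). NEAT1, whose level bears on the composition of the libraries, fell with olaparib alone from 8597, 8590 and 9845 to 4022, 4318 and 4203 and rose under 4 µM CDDP from 1298 ± 48.8 to 2181 ± 189 (adjusted p = 2.27e-07).

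**Figure D5:**
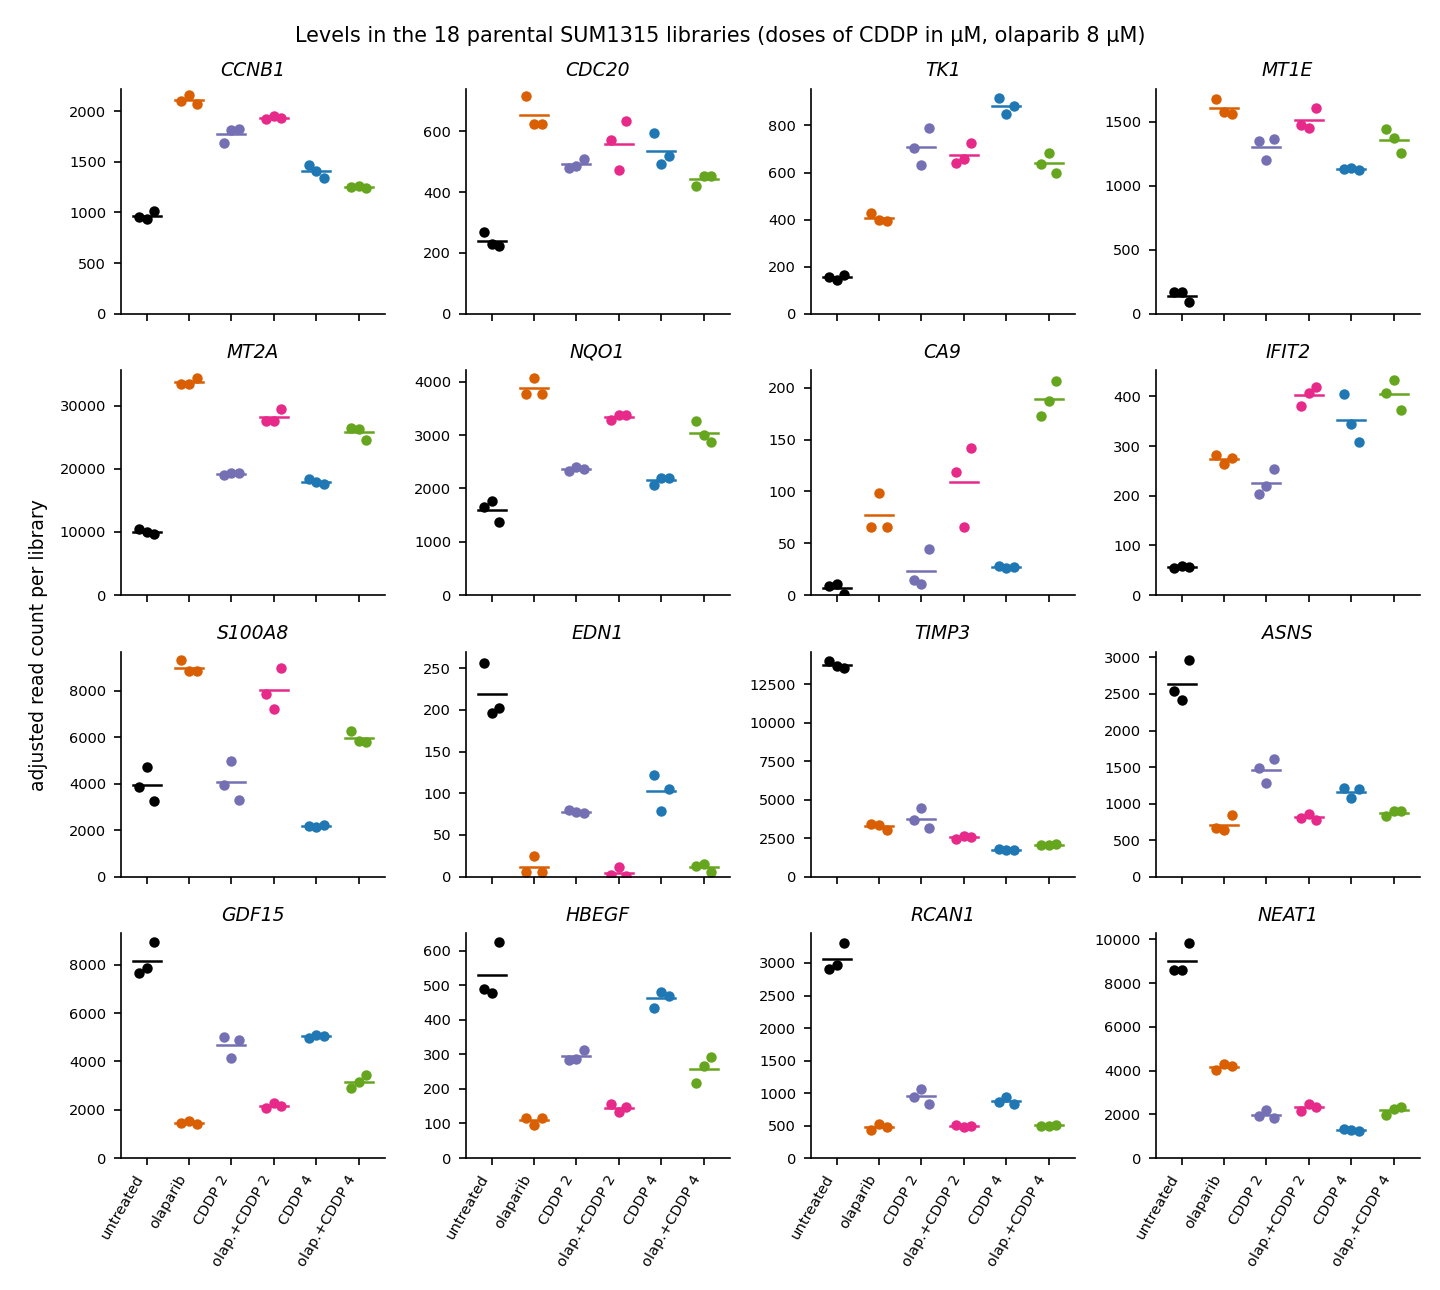
Adjusted read counts (y axes, from 0) of 16 genes in each of the 18 parental SUM1315 libraries by condition (x axis), with a bar at the mean of 3. In the panels of EDN1, CA9 and S100A8 the conditions with olaparib differ from the matching ones without it, while for MT1E and TIMP3 the untreated libraries lie apart from the other 15.

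In parental MDA-MB-468 cells, also given olaparib overnight but at 3 µM, 226 DEGs were found, 1.74% of 13012 genes tested, with 85 higher and 141 lower. The doses differ, so the values are given side by side. Of the 35 G2/M genes, 28 rose and none fell in MDA-MB-468 cells (median 0.47), and of the 28 ATF4 genes 25 fell and 1 rose (median -0.74). CCNB1 rose by 0.64 on the log2 scale and ASNS fell by 1.14, beside 1.13 and -1.90 in SUM1315 cells. Of 18 MAPK feedback genes tested in SUM1315 cells 17 were tested here, and 7 fell and none rose. EDN1 had a log2 fold change of -1.09 (adjusted p = 3.67e-09) and CA9 of -0.01 (adjusted p = 0.970). Of 3 metallothionein genes tested there, 2 rose and none fell (median 0.65), but MT2A, at 0.03 (adjusted p = 0.785), did not pass the test. The interferon-stimulated gene IFIT2, at -0.83 (adjusted p = 0.0748), did not pass it either, and of 26 genes of its list 5 rose and 2 fell. Of the genes that rose at least 2-fold in SUM1315 cells, 596 were tested in MDA-MB-468 cells and 177 (29.7%) rose at any fold, where 12.4% of all genes did, and 20 fell. Of 404 that fell and were tested, 98 (24.3%) also fell, against 9.11% of all genes, and 13 rose.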

How the data were processed

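RNA from 54 libraries of 2 TNBC lines was sequenced, 3 libraries for each of 18 conditions, and parental SUM1315 cells untreated or given olaparib were compared here. Per the labels and the methods of the study, libraries were made with the QuantSeq 3′ FWD kit and the reads were demultiplexed with CASAVA 1.8.2 and aligned to hg38, and the processing notes of the submitters also name FastQC, STAR, HTSeq and edgeR. The signal in the deposited table holds reads of each gene that the authors adjusted with edgeR, condition by condition, to 1 library size shared by all libraries, and from it whole reads were recovered by inversion. Running the scaling forward on them gave back all 1483380 values within a relative tolerance of 1e-06, and they served for depth, composition and the count tests among the alternatives. Deposited tables of log2 fold changes, p-values and FDR made by the authors were not used.

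All 27 SUM1315 libraries (9 conditions) were fitted with limma 3.58.1 in R 4.3.3, on log2 values (the deposited signal plus a pseudocount of 1) with an intensity trend, so that fold changes of genes with few reads are understated. A gene was kept where 3 or more libraries reached a value of 10, and p-values were adjusted by Benjamini-Hochberg over all genes tested. The members of the comparison, the 32 gene lists and 5 marker lists and the rule for named genes were chosen with earlier results of these data known. The 28 genes listed as mitochondrially encoded were not analysed here. Named genes are the 15 largest rises and 15 largest falls among DEGs with a mean of at least 30 in the higher group and no overlap of libraries, up to 4 called genes per list and direction by smallest p, genes of the drug target, an 18-gene list taken over from an earlier account of these data (described nowhere as a list, since only some of its genes are named in the study's text), and the 3 genes with the smallest p for the difference with and without CDDP. Other genes were chosen after their values were seen, and some genes that the rule names are not reported here. Gene positions and promoters are RefSeq's (GRCh38.p14), and where a gene had several starts only the most upstream promoter was searched. On simulated counts for this comparison (13138 genes, 200 changed), 99.0% of genes changed 3-fold and 88.0% of those changed 2-fold were called, and 4.59% of calls were false. The changed genes were drawn from those with at least 30 expected reads untreated, at 1 assumed dispersion of 0.02. The shares called therefore do not cover genes with fewer reads, and far fewer genes were changed than were called in the data. Alternatives were other pseudocounts, filters, scalings, fold limits and tests (edgeR 4.0.16 and DESeq2 1.42.0 on recovered reads), fits of 6 libraries, a replicate block, and fits with each library left out in turn. RPM values are recovered reads scaled to the total of the library.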

Additional observations from a re-analysis of the deposited data

Results flagged for a closer look

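The effect of olaparib differed with and without 4 µM CDDP for 2827 genes at an adjusted p at or under 0.05 (limma, interaction term), which is why these results are listed for a closer look. Among the 30 largest rises and falls with olaparib alone, this difference was called for 23, 11 that rose and 12 that fell, and each of the 23 was chosen for a large change in libraries that enter the difference. As log2 fold changes with CDDP minus those without, the differences of the genes that rose were -3.78 for FAM83A, -3.28 for MT1E, -2.57 for PPP1CA, -2.47 for ZDHHC12, -2.28 for AQP3, -2.26 for OST4, -2.20 for TMEM14A, -2.06 for IFIT2, -1.94 for PCDHB2, -1.62 for CDKN2D and -1.40 for ZBED5-AS1. For the genes that fell they were 3.53 for OLFM2, 3.50 for TENM2, 3.00 for KRT34, 2.89 for KCNQ5-IT1, 2.38 for LOC100129940, 2.34 for BEGAIN, 2.19 for ADAMTS6, 2.18 for RUNX1-IT1, 1.87 for RCAN1, 1.85 for SH2D5, 1.79 for GDF15 and 1.59 for CD14. TIMP3 at 2.32 and NEAT1 at 1.85 were, with MT1E, the 3 genes with the smallest p of this test among those with at least 30 adjusted reads.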

How the results depend on the processing

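The 1228 DEGs (655 higher, 573 lower) became 181 (54 and 127) when a log2 fold change of 2 in either direction was required and 2999 (1623 and 1376) at a fold change of at least 1.5. With no filter on low values 22224 genes were tested and 2116 DEGs were found, 662 higher and 1454 lower, and the share of DEGs that were higher went from 53.3% to 31.3%. With a mean of at least 50 over the 6 libraries, an alternative chosen after seeing the data, there were 707 DEGs, 408 higher and 299 lower, among fewer genes tested. Under the other pseudocounts, scalings, filters and tests the count of DEGs was 1083 to 1304, with 1185 by edgeR and 1251 by DESeq2 on recovered reads and 1147 in a fit of the 6 libraries. Leaving out 1 library gave 900 (without untreated replicate 3) to 1389 DEGs (without untreated replicate 2). At any fold, the measure of the list counts, 4732 genes were called in the main fit. A fit of the 6 libraries called 3549 (1774 higher, 1775 lower), and fits without 1 library called 3678 to 4518. The olaparib DEGs under 4 µM CDDP were 260 to 301 and those in MDA-MB-468 cells 192 to 230 when each library was left out, and the genes that differed with and without CDDP were 2295 to 2942. G2/M genes that rose were 33 or 34 of 35 and ATF4 genes that fell 18 to 20 of 28 under every alternative for the comparison of olaparib with untreated cells.

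Replicate numbers were not used to pair the libraries in the main fit. Same-numbered untreated and olaparib libraries showed little shared deviation, at correlations of -0.013 to 0.064. These values cannot tell whether same-numbered libraries were prepared together. With a replicate block, 1220 DEGs were found for olaparib alone, 338 under 4 µM CDDP and 223 in MDA-MB-468 cells, and 2774 genes for the difference. None of the 206 named genes called in the main comparison changed direction. The call was lost by 27 of them in a fit of only 6 libraries and by 25 without untreated replicate 3, and by at most 15 under any other alternative. Among the named genes that were not called, leaving out a library turned the direction of 4, with log2 fold changes of -0.032 to 0.20 for BRCA1, -0.096 to 0.34 for E2F2, -0.30 to 0.55 for E2F8 and -0.11 to 1.174 for RBP4. The 6 libraries held 5737314 to 6943388 reads, which limits the precision for genes with few reads, and changes of under 2-fold in them were seldom called.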
